A study of Mus musculus with 2 samples.

Results

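The 8 genes described here are Lcn2, Saa1, Saa3, S100a8, S100a9, Ltf, Camp and Ngp, which encode acute-phase proteins and proteins of neutrophil granules. They were taken by symbol, 1 row each, from the 32285 genes of both count matrices. The set was chosen by measured values of these libraries, among them the level of each gene over all cells of each library, so those levels are given as a description. Each matrix holds 1 droplet library (10x Genomics 3′ v3.1 chemistry) of dissociated cochlear sensory epithelium from C57BL/6J mice aged 4 to 6 weeks, with n = 5 per group and 1 library made from each group. Both groups had noise (octave band of 8 to 16 kHz, 105 dB, 2 hours) and were dissected 2 days later. The NIHL ears had noise and no drug. The Drug-NIHL ears had received a drug (90 mg/ml), abbreviated VPA in the title of the series, ahead of the noise, and the labels do not say by which route. The untreated ears were the contralateral ears of the treated mice, so what the drug did to both ears alike cannot be seen in this comparison. The question addressed was which cells make these transcripts, and whether those cells held more or less of them in Drug-NIHL than in NIHL.

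There was 1 library per group, so no test between groups was possible. Levels are given in CPM, the UMIs of a gene (unique molecular identifiers, each 1 captured transcript) summed over the cells named and scaled to the same total over all genes in every set of cells. Ratios are Drug-NIHL over NIHL, and the range in brackets is an exact 95% interval for counting error alone. It does not cover differences between cells, ears, mice or library preparations. It takes each UMI as an independent draw, though 1 cell can hold many UMIs of a gene, so an interval that leaves out 1 is no test. A ratio of at least 1.5 is called higher and of at most 1/1.5 lower, as a description of size, for genes with at least 20 UMIs in the 2 sums together. After filtering, 16618 NIHL and 17536 Drug-NIHL cells remained, with 33790872 and 30725156 UMIs and medians of 1128 and 1128.5 UMIs per cell. Median mitochondrial shares were 4.86% and 6.72%. Predicted doublets removed made up 4.62% and 12.9% of cells, a gap that moves with the group, and the caller set its score threshold at 0.264 in NIHL and 0.164 in Drug-NIHL. Of the barcode sequences, 87 occurred in both libraries after filtering and 0 were in a source cluster in both. The labelled tissue was represented by hair cell-like and organ of Corti supporting cell-like clusters. The same libraries also held erythroid-like cells (243 and 388), B lineage-like cells (99 and 171) and airway or mucosal epithelium-like cells (133 and 226), which are not cell types of the sensory epithelium.

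Neutrophils make their granule proteins in sequence as they mature in the marrow. Azurophil granule proteases such as Mpo and Elane are transcribed first, in promyelocytes. Specific granule proteins follow in myelocytes and metamyelocytes, among them Ltf (lactoferrin, which binds iron), Camp (the cathelicidin antimicrobial peptide), Ngp (neutrophilic granule protein, a cystatin-like protein) and Lcn2 (lipocalin-2, which binds bacterial siderophores). S100a8 and S100a9 encode the subunits of calprotectin, a calcium- and metal-binding cytosolic complex that makes up much of a neutrophil's protein. Saa1 and Saa3 encode serum amyloid A proteins: Saa1 is made mainly by the liver in the acute phase, and Saa3 by macrophages, fat and epithelia. Lcn2 and Ltf are also made by mucosal epithelia, so that neither marks neutrophils alone.

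The genes lie in 4 places of the mouse genome (GENCODE M21, GRCm38). Lcn2 is at chr2:32384633-32388252 on the minus strand. S100a8 (chr3:90668978-90670035, plus strand) and S100a9 (chr3:90692632-90695721, minus strand) are neighbours 22.6 kb apart. Saa3 (chr7:46711998-46715700) and Saa1 (chr7:46740497-46742980), both on the minus strand, are 24.8 kb apart. Camp (chr9:109847379-109849617, minus strand), Ngp (chr9:110419747-110423012, plus strand) and Ltf (chr9:111019271-111042767, plus strand) lie on chromosome 9, with 570.1 kb between Camp and Ngp and 596.3 kb between Ngp and Ltf. Saa1 has a close copy, Saa2, 8.81 kb away. Their longest annotated coding transcripts shared 87.3% of aligned positions, and 90.1% over the last 200 bases, which 3′ reads cover, so the split of reads between Saa1 and Saa2 is uncertain. Saa1 and Saa3 shared 47.0% over the last 200 bases.

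The 250 bases before the start site of Lcn2, Ltf, Camp and Ngp are shown because these were the members called higher together in the neutrophil-lineage cells (RefSeq, GRCm38.p6, 5′ to 3′ on the gene's own strand). Capitals mark matches to the NF-kB motif (GGG, any 5 bases, then CC) or the C/EBP motif TTGCNNAA on either strand, and to the TATA motif TATAAA on the gene's strand. The regions are chr2:32387740-32387989 (minus) for Lcn2, chr9:111019042-111019291 (plus) for Ltf, chr9:109849457-109849706 (minus) for Camp and chr9:110419558-110419807 (plus) for Ngp.
Lcn2: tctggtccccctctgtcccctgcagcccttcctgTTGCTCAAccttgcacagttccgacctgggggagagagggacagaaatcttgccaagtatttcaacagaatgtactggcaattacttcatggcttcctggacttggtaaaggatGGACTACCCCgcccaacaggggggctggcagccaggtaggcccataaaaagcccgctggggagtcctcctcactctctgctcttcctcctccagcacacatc
Ltf: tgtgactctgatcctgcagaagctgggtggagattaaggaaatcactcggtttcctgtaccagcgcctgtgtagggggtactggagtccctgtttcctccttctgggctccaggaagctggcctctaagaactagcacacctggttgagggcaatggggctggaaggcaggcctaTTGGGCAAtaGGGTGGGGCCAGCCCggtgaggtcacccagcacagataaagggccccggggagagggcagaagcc
Camp: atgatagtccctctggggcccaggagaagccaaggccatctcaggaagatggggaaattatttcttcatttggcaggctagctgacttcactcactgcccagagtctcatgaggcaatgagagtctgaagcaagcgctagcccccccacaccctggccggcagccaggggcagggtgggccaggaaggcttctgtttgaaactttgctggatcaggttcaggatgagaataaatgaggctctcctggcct
Ngp: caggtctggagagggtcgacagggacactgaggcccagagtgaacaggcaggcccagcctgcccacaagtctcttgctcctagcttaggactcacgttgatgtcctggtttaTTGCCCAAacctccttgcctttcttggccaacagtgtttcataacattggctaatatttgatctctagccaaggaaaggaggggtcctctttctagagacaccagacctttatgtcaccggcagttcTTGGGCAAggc
The Lcn2 window held 1 NF-kB match and 1 C/EBP match, and the Ltf window held 4 overlapping NF-kB matches, counted over both strands, and 1 C/EBP match. The Ngp window held 2 C/EBP matches, and the Camp window held none of the 3 motifs. Among the other members, Saa1 had 1 match to each of NF-kB and C/EBP, Saa3 and S100a9 had 1 C/EBP match each, and S100a8 had 1 TATA match. Over all 27025 promoter windows of this length, 45.4% held the NF-kB motif, 9.55% the C/EBP motif and 8.12% the TATA motif. The matches are a description of letters and not of binding.

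Source cells were told apart from cells that carry free RNA by a rule on clusters. A source cluster of a gene had at least 5 times its median level over clusters, at least 5% of cells with 2 or more UMIs of it, and no more than 50% of the UMIs in 1 cell. The 41 clusters were made without the 8 members. By this rule S100a8, S100a9, Camp and Ngp had 1 source, Lcn2 and Ltf had 2, and Saa1 and Saa3 had none. The first source was cluster 19, a neutrophil precursor-like cluster that also held mature neutrophils and monocytes, with 250 NIHL and 414 Drug-NIHL cells. The other was cluster 28, the mucosal epithelium-like cluster led by Bpifa1, Reg3g and Krt15.

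Cluster 19 held 96.8% of all S100a8 UMIs in NIHL and 98.8% in Drug-NIHL, and for Camp 98.6% and 99.4%. Ngp gave 99.0% and 99.6%. Ltf was instead mostly epithelial: the mucosal cluster held 73.0% of its UMIs in NIHL and 72.6% in Drug-NIHL, and cluster 19 held 26.2% and 26.0%. Lcn2 changed its place between libraries. In NIHL, 73.3% of its UMIs lay in cluster 19, 4.98% in the mucosal cluster and 11.5% in an unnamed cluster led by Fst, Inmt, Dpep1 and Coch. In Drug-NIHL these shares were 53.0%, 44.2% and 0.583%.

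**Figure D1:**
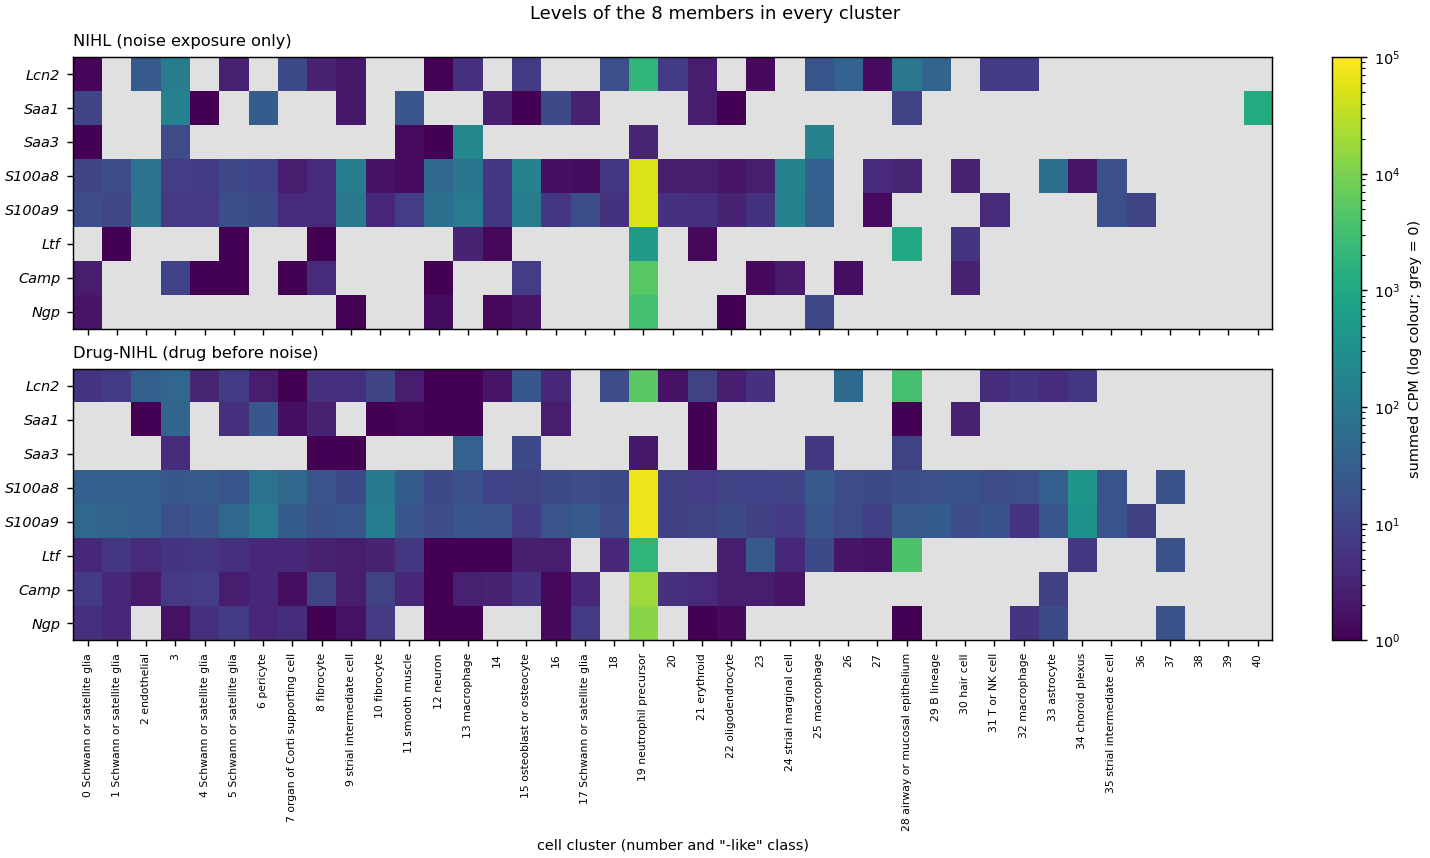
Summed level of each of the 8 members (rows) in each of the 41 clusters (columns) in NIHL (upper panel) and Drug-NIHL (lower panel), in CPM on a log colour scale, with 0 in grey. The granule genes and both S100 genes peak in cluster 19, Lcn2 and Ltf also in cluster 28, and low S100a8 and S100a9 levels run across most other clusters.

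Over all cells, the summed levels were as follows, given as a description because the choice of members used them. S100a8 stood at 1001 CPM in NIHL and 2295 CPM in Drug-NIHL, and S100a9 at 1026 and 2272 CPM. Lcn2 stood at 48.7 and 302 CPM, Ltf at 35.8 and 214 CPM, Camp at 92.5 and 555 CPM, and Ngp at 57.5 and 388 CPM. Saa1 and Saa3 had lower levels in Drug-NIHL, at 10.7 and 2.77 CPM for Saa1 and 8.17 and 2.38 CPM for Saa3. Thus 6 members were higher and 2 lower. Of all 17256 genes measured, 9.59% passed the fold in either direction, 5.89% higher and 3.7% lower, and nothing is read from the members' count here. These sums mix how many source cells a library held with how much each cell held.

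The number of source cells differed. Cluster 19 made up 1.504% of NIHL cells and 2.36% of Drug-NIHL cells, a ratio of 1.57 (1.34 to 1.84), and the mucosal cluster 0.800% and 1.29%, a ratio of 1.61 (1.29 to 2.01). Erythroid-like cells, with a ratio of 1.51 (1.29 to 1.78), and B lineage-like cells, with 1.64 (1.27 to 2.12), were more frequent by a similar factor. Their part in the share of cluster 19 was not tested. Cluster 19 also held monocytes and other cells, and the share of its mature neutrophil-like cells is given below.

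Within cluster 19, all 6 members with a source there had ratios above 1. S100a8 stood at 53495 CPM in NIHL and 75417 CPM in Drug-NIHL, a ratio of 1.41 (1.39 to 1.43), and S100a9 at 54744 and 74542 CPM, a ratio of 1.36 (1.34 to 1.38). Lcn2 stood at 1974 and 5315 CPM, a ratio of 2.69 (2.53 to 2.87). Ltf stood at 518 and 1848 CPM (3.57, 3.16 to 4.03), Camp at 5032 and 18329 CPM (3.64, 3.505 to 3.79) and Ngp at 3143 and 12844 CPM (4.09, 3.89 to 4.29). The specific granule genes Lcn2, Ltf, Camp and Ngp were thus the 4 of 6 members called higher, and none was lower, where 23.6% of 6569 genes passed the fold in either direction, 9.77% higher and 13.8% lower. Cluster 19 held most UMIs of each of the 6 but Ltf, and their levels over all cells were among the values that chose the set. The count is thus a description, and nothing is read from it. The calprotectin genes stayed below the 1.5-fold mark. With every cell weighted alike, as an average of single-cell CPM, the ratio was 0.953 for S100a8 and 0.892 for S100a9, so their direction turned. With the sub-clusters described next weighted as in NIHL, the ratios were 2.61 for Ltf, 2.24 for Ngp, 1.79 for Lcn2 and 1.70 for Camp.

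The cells behind these sums were unevenly filled. S100a8 was found in 58.0% of cluster 19 cells in each library, with a median of 92 UMIs per cell in NIHL and 7.5 in Drug-NIHL. Outside the sources it was found in 0.977% of NIHL and 2.59% of Drug-NIHL cells, at median depths of 1120 and 1115 UMIs. Camp was found in 20.4% of the NIHL and 35.0% of the Drug-NIHL cells of the cluster, and in 14.8% and 33.6% after each cell was thinned to 500 UMIs. Ngp was found in 27.6% and 37.2% (20% and 34.8% thinned), and Ltf in 8.80% and 30.2% (7.20% and 26.6% thinned). Lcn2 was found in 48.4% and 44.2% (38.0% and 38.9% thinned), so for Lcn2 the 2 libraries had shares of positive cells within 5 points of each other beside a level 2.69 times as high. Outside the sources, Camp was found in 0.183% and 0.485% of cells.

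**Figure D2:**
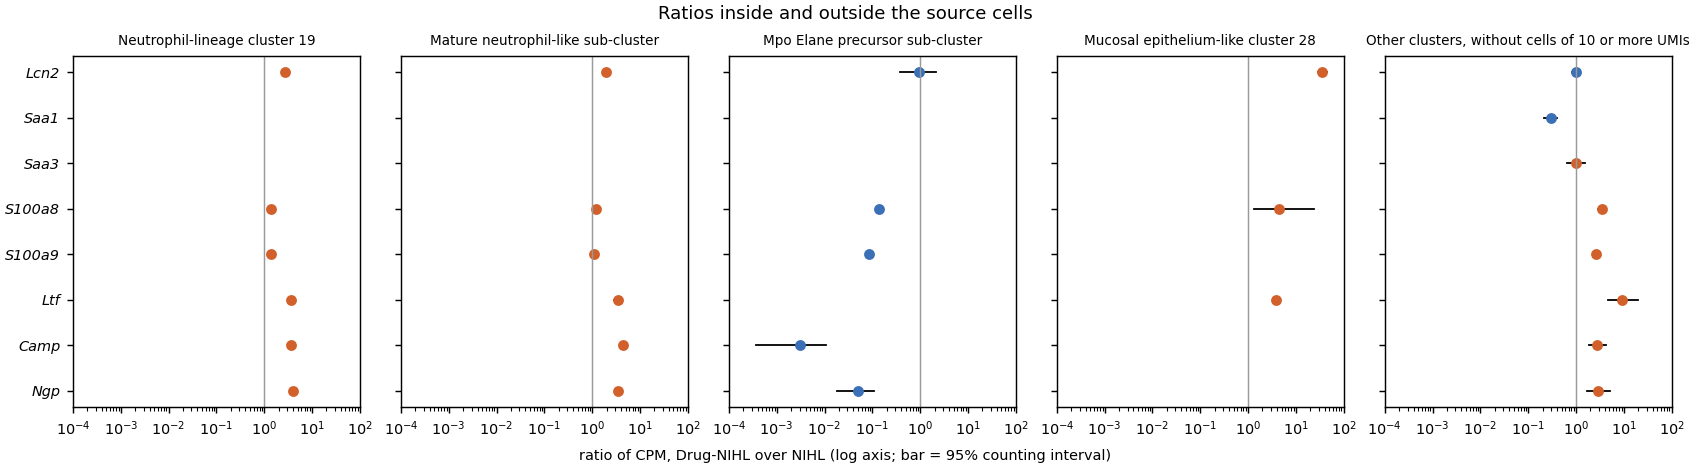
Ratio of CPM, Drug-NIHL over NIHL, for each member (rows) in 5 sets of cells (panels), on a log axis with 95% counting intervals, in orange above 1 and blue below. A member with under 20 UMIs in a set, or with 0 UMIs in 1 of the libraries there, is not drawn. This leaves out S100a9 in the mucosal cluster, with 0 NIHL and 31 Drug-NIHL UMIs. Ratios lie above 1 in cluster 19 and the mature neutrophil-like cells and below 1 in the Mpo and Elane sub-cluster (with the Lcn2 interval across 1). Of the ratios drawn, the largest is that of Lcn2 in the mucosal cluster.

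Cluster 19 was divided again, without the members, into 9 sub-clusters. This was added after the data were seen. A mature neutrophil-like sub-cluster (Mmp9, Retnlg, Mmp8) had 101 NIHL and 85 Drug-NIHL cells. These were 0.608% and 0.485% of all cells, a ratio of 0.798 (0.591 to 1.07). Under 4 alternative settings given below, the cells set apart as mature were instead more numerous in Drug-NIHL. A dividing precursor-like sub-cluster (Chil3, Fcnb, Cebpe) had 2 and 45 cells, and an earlier precursor-like sub-cluster (Mpo, Elane, Ctsg, Prtn3) had 18 in each library. Both held division markers, so "dividing" is a label only. Mki67 stood at 208 CPM in NIHL and 536 CPM in Drug-NIHL in the first, and Top2a at 104 and 554 CPM. In the earlier one Mki67 stood at 413 and 195 CPM and Top2a at 458 and 271 CPM. An unnamed sub-cluster led by Ace and Adgre4 had 56 and 78 cells, monocyte or dendritic-like cells 35 and 50, and macrophage-like cells 3 and 28. Sub-clusters that carried Schwann cell transcripts (15 and 58 cells) or smooth muscle transcripts (17 and 46) held S100a8 in both libraries. The first held 6.02% of the NIHL library's S100a8 and 10.7% of the Drug-NIHL library's, and the second 6.82% and 12.5%. Whether the cells of these sub-clusters are doublets that were not marked was not tested. The monocyte or dendritic-like cells held no S100a8 UMIs in either library.

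Much of the Drug-NIHL total sat in the dividing precursor-like cells. They held 60.2% of that library's Camp and 43.7% of its S100a8, against 22.4% and 5.62% in NIHL from only 2 cells. Camp, at 59146 CPM, and Ngp, at 38315 CPM, were higher in them than in any other sub-cluster of Drug-NIHL. Ltf stood at 4153 CPM and Lcn2 at 12956 CPM, near their levels in the mature cells given below. The 2 NIHL cells stood at 72786 CPM for Camp and 45686 CPM for Ngp. All 6 ratios there were below 1, between 0.618 for Lcn2 and 0.902 for S100a8, but rest on 2 NIHL cells.

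Mature neutrophil-like cells of Drug-NIHL held more specific granule transcript. In NIHL, Camp stood at 5757 CPM and was found in 25.7% of these cells. In Drug-NIHL it stood at 25973 CPM and was found in 67.1%, a ratio of 4.51 (4.16 to 4.90). Ngp stood at 6843 and 23832 CPM, with 44.6% and 76.5% of cells positive (3.48, 3.22 to 3.77). Ltf stood at 1494 and 5094 CPM, with 14.9% and 55.3% of cells positive (3.41, 2.88 to 4.05). Lcn2, found in 86.1% and 85.9% of cells, stood at 6492 and 12425 CPM (1.91, 1.75 to 2.09), and its median was 3 and 10 UMIs per cell. None of Camp, Ngp and Ltf was detected in 56 of 101 NIHL cells and 19 of 85 Drug-NIHL cells, and all 3 in 15 and 46 cells. The 2 libraries overlapped: cells with none and cells with all 3 occurred in both.

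S100a8 and S100a9 differed little in the same cells. S100a8 stood at 159750 and 188347 CPM, a ratio of 1.18 (1.16 to 1.20), and S100a9 at 173991 and 188796 CPM, a ratio of 1.09 (1.06 to 1.11). Together they took a median of 32.2% of a NIHL cell's UMIs and 38.1% of a Drug-NIHL cell's, and the CPM of every other gene is a share of a total that includes them. Here 4 of 6 members were higher and none lower, where 40.1% of 1084 genes passed the fold in either direction, 11.3% higher and 28.8% lower. The members were chosen by levels that these cells helped to set, so this count too is a description. Under 4 alternative settings of the whole-library clustering, a neutrophil-like cluster stood apart from a precursor-like one, with 120 to 133 NIHL and 161 to 217 Drug-NIHL cells, more than the 101 and 85 cells here. With the members among the variable genes it also took in dividing precursors, since it held 16941 of the 17039 Camp UMIs of Drug-NIHL. In these clusters the ratio of S100a8 ranged from 0.812 to 1.13 and of S100a9 from 0.757 to 1.04, so their direction turned with the setting. The ratio of Camp ranged from 2.48 to 4.38, of Ltf from 2.07 to 3.15, of Ngp from 1.93 to 3.05 and of Lcn2 from 1.33 to 2.12, so that Lcn2 was no longer called higher with at least 200 genes per cell.

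At a finer resolution, also added after the data were seen, the mature cells fell into 2 sub-clusters of unlike make-up. The first, led by Sfxn5, Stfa2l1 and Cxcr2 among others, had 83 NIHL and 30 Drug-NIHL cells, and the other, led by Ly6g, Ceacam10, Mmp25 and Fpr2 among others, 17 and 64. Lcn2, Ltf, Camp and Ngp each differed more between the sub-clusters than between libraries. Lcn2 stood at 4094 CPM in NIHL and 3857 CPM in Drug-NIHL in the first, a ratio of 0.942 (0.750 to 1.17), and at 12995 and 14385 CPM in the other, a ratio of 1.11 (0.993 to 1.24). Ltf stood at 145 and 260 CPM in the first, a ratio of 1.78 (0.603 to 4.81) on 13 and 7 UMIs, and at 5241 and 6385 CPM in the other, a ratio of 1.22 (1.03 to 1.45). Camp stood at 794 and 2410 CPM in the first and at 19553 and 31067 CPM in the other. Its ratios were 3.03 (2.13 to 4.31) and 1.59 (1.46 to 1.73). Ngp stood at 2103 and 4673 CPM in the first and at 19982 and 28567 CPM in the other. Its ratios were 2.22 (1.76 to 2.80) and 1.43 (1.31 to 1.56). The interval of the Lcn2 ratio included 1 in each sub-cluster, while the numbers of cells in the 2 sub-clusters differed between libraries.

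**Figure D3:**
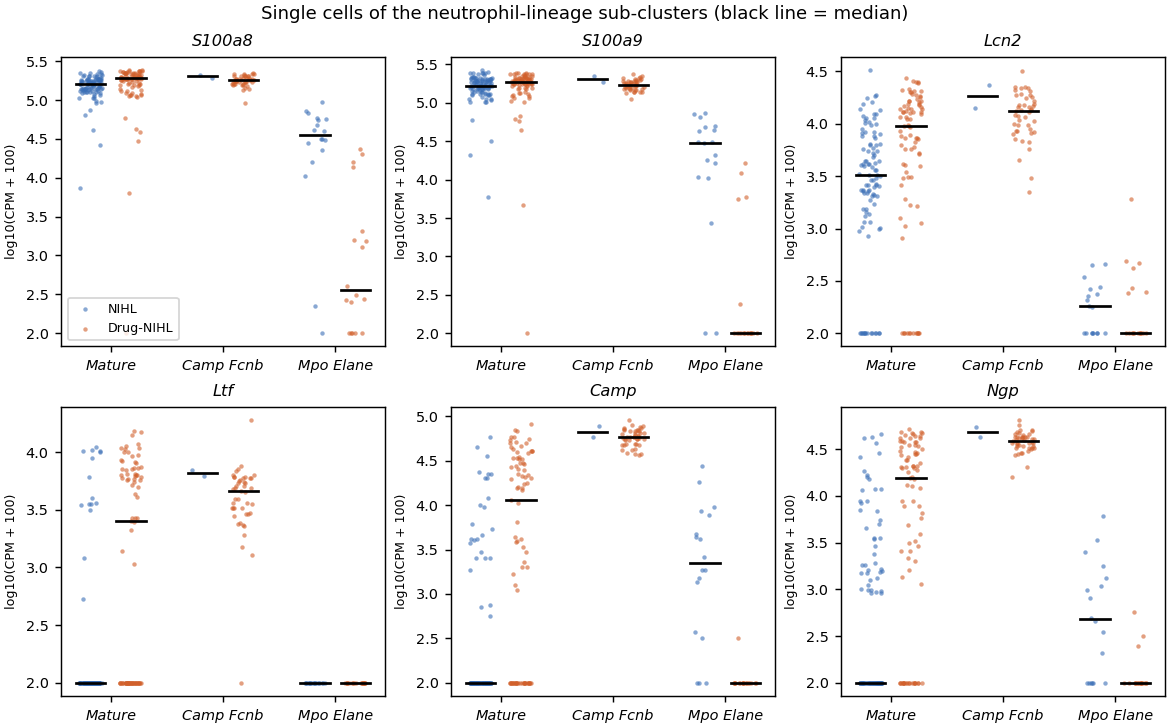
Level in each single cell, as log10 of CPM plus 100, for 6 members (panels) in the mature, the dividing (Camp Fcnb) and the early (Mpo Elane) sub-clusters, NIHL in blue and Drug-NIHL in orange, black lines at medians. Camp, Ltf and Ngp medians lie at the bottom of the axis for mature NIHL cells and above it for mature Drug-NIHL cells, and the early precursors show the reverse for S100a8, S100a9, Camp and Ngp.

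The early precursor-like cells went the other way, with 18 cells in each library. S100a8 stood at 38254 CPM in NIHL and 5216 CPM in Drug-NIHL, a ratio of 0.136 (0.125 to 0.148), and S100a9 at 29984 and 2498 CPM (0.0833, 0.0738 to 0.0937). S100a8 was found in 17 and 13 cells, with medians of 307.5 and 2.5 UMIs. Camp had 994 UMIs in 15 NIHL cells and 2 UMIs in 1 Drug-NIHL cell (0.00301, 0.000364 to 0.0109), and Ngp 181 and 6 UMIs (0.0496, 0.0180 to 0.110). Ltf had 0 UMIs in both. S100a8 and S100a9 together took 0 to 16.7% of a NIHL cell's UMIs, with a median of 6.601%, and 0 to 3.65% of a Drug-NIHL cell's, with a median of 0.0258%, so the libraries overlapped at the low end. Of the Camp UMIs in NIHL, 1 cell held 37.8%. Early cells without Camp, Ngp or Ltf numbered 3 in NIHL and 15 in Drug-NIHL. Markers of the precursor stages differed in the same cells: Fcnb stood at 1058 and 76.2 CPM, Cebpe at 379 and 127 CPM, Mpo at 5475 and 3683 CPM and Ctsg at 4180 and 4343 CPM. The part of the stage of these cells in the members' ratios was not tested.

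Other granule genes were read beside the members. In cluster 19, 4 of 5 azurophil granule genes were lower and none higher, with ratios of 0.303 (0.270 to 0.340) for Mpo (myeloperoxidase) and 0.288 (0.267 to 0.310) for Elane (neutrophil elastase). The early precursor-like sub-cluster held 176792 of the cluster's 611849 UMIs in NIHL and 118108 of 924373 in Drug-NIHL. Inside it Mpo stood at 5475 and 3683 CPM, Elane at 13485 and 8162, Prtn3 at 12619 and 8873 and Ctsg at 4180 and 4343 CPM. The part of the mix of sub-clusters in the cluster 19 ratios was not tested. Of 12 measured specific granule genes, 6 were higher and none lower, with a median log2 ratio of 0.54 against -0.09 over all genes tested, and 4 of those 6 are members. The other 2 were Chil3 (a chitinase-like protein of myelocytes), with a ratio of 4.07 (3.64 to 4.57), and Cd177 (1.64, 1.29 to 2.10). Of 20 mature neutrophil genes, 6 were lower and none higher, with Retnlg at 0.492 (0.469 to 0.515) and Csf3r (the G-CSF receptor) at 0.378 (0.260 to 0.546). Mature neutrophil-like cells were 40.4% of cluster 19 cells in NIHL and 20.5% in Drug-NIHL. In the mature sub-cluster, Chil3 was higher at 5.78 (4.28 to 7.96), and 10 of 18 mature neutrophil genes were lower, among them Il1b (the cytokine IL-1 beta) at 0.377 (0.304 to 0.466) and Retnlg at 0.545 (0.515 to 0.577). Of 4 granulopoiesis transcription factors measured there, 1 was higher and 2 lower: Cebpb, with a ratio of 0.547 (0.420 to 0.707), was the one of these whose interval left out 1. Of 8 gelatinase granule genes in cluster 19, 1 was higher and 2 lower, and the higher one, Arg1, had 0 NIHL and 47 Drug-NIHL UMIs. Arg1 is the first of the leading genes of the macrophage-like sub-cluster, with its 3 NIHL and 28 Drug-NIHL cells.

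Lcn2 in the mucosal epithelium-like cells was low in NIHL and high in Drug-NIHL. The cluster met the source rule for Lcn2 only through Drug-NIHL, with 2 or more UMIs in 66.8% of cells there and in 3.76% in NIHL, so a difference in this direction was built into its choice and the ratio is a description. In NIHL, 82 UMIs lay in 8 of 133 cells, and 1 cell held 42.7% of them, for 95.4 CPM. In Drug-NIHL, 4092 UMIs lay in 172 of 226 cells, and 1 cell held 12.8%, for 3378 CPM. The ratio was 35.4 (28.5 to 44.6), and 54.5 without the top cell of each library. After thinning, 1.504% and 47.8% of cells were positive, against 0.992% and 0.994% of unthinned cells outside the sources. In NIHL few cells had Lcn2, and in Drug-NIHL 172 of 226 cells had it at full depth.

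Ltf moved less in the same cells. It stood at 1026 CPM in NIHL and 3936 CPM in Drug-NIHL, a ratio of 3.84 (3.57 to 4.13), with 44.4% and 69.0% of cells positive (22.6% and 49.6% thinned). Both genes were found together in 3 NIHL cells and 133 Drug-NIHL cells, and Ltf alone in 56 and 23. Lcn2, chosen as above, and Ltf were both higher here, where 29.2% of 8285 genes passed the fold in either direction, 15.2% higher and 14% lower. These cells held most Ltf UMIs, and the level of Ltf over all cells was among the values that chose the set. Nothing is read from this count. Transcripts of neutrophils were read in the same cells. Camp had 0 UMIs in both libraries and Ngp 0 and 1, while S100a8 had 3 and 19 UMIs and S100a9 0 and 31. The part of free neutrophil RNA in the mucosal Lcn2 and Ltf was not tested.

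**Figure D4:**
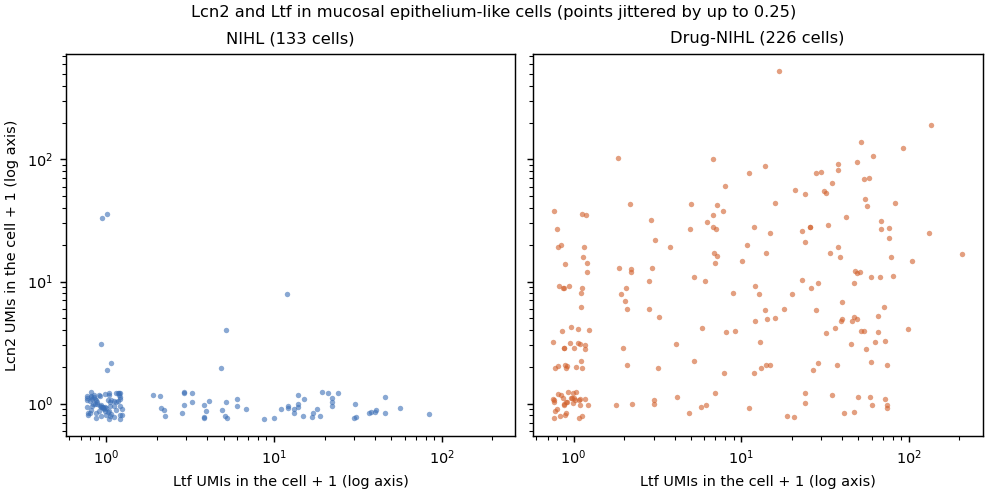
UMIs of Ltf (horizontal) and Lcn2 (vertical), plus 1, in each mucosal epithelium-like cell, on log axes, with NIHL at the left and Drug-NIHL at the right. The 133 NIHL cells spread along the Ltf axis with Lcn2 near 0, and the 226 Drug-NIHL cells spread along both.

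In these cells 9 of 12 measured acute-phase genes were higher and 1 lower, with a median log2 ratio of 2.49 against 0.01 over all genes tested; Lcn2 is 1 of the 9. Hp (haptoglobin, which binds free haemoglobin) had 4 NIHL and 679 Drug-NIHL UMIs, a ratio of 120 (46.8 to 443). C3 had a ratio of 10.6, Cp (ceruloplasmin) of 5.82, Lbp of 3.35 and Hamp (hepcidin) of 12.2, while Il1rn was lower at 0.164 (0.0551 to 0.407). Of 8 antimicrobial epithelial genes, 4 were higher and 2 lower. Reg3g, an antibacterial lectin, stood at 162 and 3508 CPM (21.7, 18.3 to 25.9), and Slpi had 2 and 249 UMIs (88.3, 24.2 to 733). Bpifa1, a secreted airway protein and a marker of the cluster, stood at 146747 and 57252 CPM (0.390, 0.387 to 0.394), and Lyz2 was lower at 0.178 (0.129 to 0.243). Of 9 measured markers of the cluster, 4 were higher and 4 lower. Among the basal keratins Krt15 was lower at 0.105 (0.0895 to 0.122) and Krt5 at 0.489 (0.388 to 0.616), while Krt14 was higher at 1.77 (1.51 to 2.09). The surfactant protein gene Sftpd was higher at 10.5 (6.73 to 17.2). The mucosal cluster thus held cells of unlike make-up in the 2 libraries, and whether the same kinds of epithelial cell were sampled was not tested. The neutrophil chemoattractants Cxcl5, with 1 and 121 UMIs (85.8, 15.1 to 3418), and Cxcl2, with a ratio of 3.21 (2.07 to 5.16), were 2 of 4 higher among 8 measured, with none lower.

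Receptors and inducers of the members were counted in the same cells, beside the shares of all genes given above: 15.2% higher and 14% lower in the mucosal cells, 9.77% and 13.8% in cluster 19, and 11.3% and 28.8% in the mature neutrophil-like cells. In the mucosal cells, 1 of 16 measured acute-phase inducers, receptors and mediators was higher and 3 lower, among them Socs3 at 0.551 (0.454 to 0.668). Of 7 receptors and binding partners of the members, none was higher and 3 lower, and Slc22a17, a reported Lcn2 receptor, had 21 and 18 UMIs (0.608, 0.305 to 1.20). In cluster 19, 4 of 11 receptors were lower and 1 higher, with Tlr2 at 0.590 (0.405 to 0.856). Of the 19 measured inducers there, 2 were higher and none lower. In the mature neutrophil-like cells 7 of 9 measured inducers were lower and none higher, among them Nfkbia (an inhibitor of NF-kB) at 0.417 (0.254 to 0.665). Of 11 neutrophil chemoattractants in cluster 19, 7 were higher and 2 lower, with Cxcl3 at 2 and 113 UMIs (37.4, 10.1 to 313) and Pf4 at 6 and 64 UMIs (7.06, 3.07 to 19.95). Both are among the leading genes of the macrophage-like sub-cluster, which had 3 NIHL and 28 Drug-NIHL cells. Of the other S100 genes, 3 of 8 were higher and none lower in cluster 19, with S100a10 at 1.99 (1.69 to 2.36). In the mature neutrophil-like cells S100a6 (0.521, 0.474 to 0.572) and S100a11 (0.612, 0.554 to 0.675) were lower.

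Lcn2 and Saa1 were lower in one set of cochlear cells. The unnamed cluster led by Fst, Inmt, Dpep1 and Coch had 985 NIHL and 1057 Drug-NIHL cells, and met a looser source rule (1% of cells with 2 or more UMIs) for both genes. Both passed it only through NIHL, with 2 or more UMIs of Lcn2 in 3.25% of NIHL and 0.946% of Drug-NIHL cells and of Saa1 in 3.15% and 0.284%, so the ratios here are a description. Lcn2 had 189 UMIs in 55 NIHL cells and 54 UMIs in 33 Drug-NIHL cells, for 130 and 45.6 CPM, a ratio of 0.350 (0.254 to 0.476), and 0.358 without the top cells. Saa1 had 230 UMIs in 48 cells and 50 UMIs in 16 cells, for 159 and 42.3 CPM, a ratio of 0.267 (0.192 to 0.363). In Drug-NIHL 1 cell held 62.0% of those UMIs, and without the top cells the ratio was 0.111. Saa2, its close copy, had 61 and 38 UMIs (0.764, 0.496 to 1.16). Saa3 had 21 and 5 UMIs. The looser rule also took in the osteoblast or osteocyte-like cluster, with 11 and 18 Lcn2 UMIs, an unnamed cluster led by Tectb and Tecta, with 24 and 25 Lcn2 UMIs, and the mucosal cluster for Saa3, with 0 and 11 UMIs. In the Coch and Inmt cluster 15.7% of 9521 genes passed the fold in either direction, 7.39% higher and 8.35% lower. Of 12 measured acute-phase genes, 4 were lower and none higher. Among these 4 were the members Lcn2, Saa1 and Saa3. For Lcn2 and Saa1 the direction was built into the choice of the cluster, so nothing is read from this count.

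Saa1 was otherwise rare. A cluster of 15 NIHL cells and 0 Drug-NIHL cells, led by Saa2, Saa1 and Iglc1, held 53 Saa1 UMIs, for 1203 CPM, with 13 of 15 cells positive; it was too small for the source rule, and 0 of 17536 Drug-NIHL cells allows a share of up to 0.0171%. No neutrophil-lineage cell of either library had a Saa1 UMI. Saa3 rested on single cells: in the macrophage-like cluster 13, 209 NIHL UMIs were found in 5 of 350 cells with 93.8% in 1 cell, and 41 Drug-NIHL UMIs in 7 of 533 cells with 53.7% in 1 cell. In a second macrophage-like cluster (25) 41 NIHL UMIs lay in 4 cells. Over all cells, the Saa3 ratio of 0.291 became 1.002 (0.640 to 1.56) without cells of 10 or more UMIs, so the higher NIHL total rested on 2 cells. The Saa1 ratio without such cells was 0.292 (0.212 to 0.396).

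Outside the sources, S100a8 was spread thinly over most clusters. It had 1087 UMIs in 160 NIHL cells and 812 UMIs in 444 Drug-NIHL cells, for 32.8 and 27.2 CPM. In NIHL 10 cells held 85.6% of those UMIs, and in Drug-NIHL 9 cells held 40.8%. Without cells of 10 or more UMIs the levels were 4.71 and 16.2 CPM, a ratio of 3.43 (2.86 to 4.13), which turned the direction of the sum (0.832, 0.758 to 0.912). For S100a9 the levels without such cells were 6.25 and 16.5 CPM (2.64, 2.24 to 3.12). The median cluster stood at 3.99 CPM of S100a8 in NIHL and 16.7 CPM in Drug-NIHL. For S100a8 the ratio was thus 1.41 in the source cells, 2.29 over all cells and 3.43 in the thin background, and for S100a9 1.36, 2.21 and 2.64.

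The S100a8 to S100a9 ratio of UMIs was compared inside and outside the source. It was 0.977 (0.962 to 0.992) inside cluster 19 and 0.927 (0.853 to 1.01) outside it in NIHL, and 1.01 (1.001 to 1.02) and 0.913 (0.829 to 1.01) in Drug-NIHL. Without cells of 10 or more UMIs of each, the outside values were 0.754 (0.608 to 0.932) and 0.965 (0.849 to 1.10). Camp outside had 45 and 96 UMIs, Ngp 20 and 53 and Ltf 10 and 96, with ratios of 2.38 (1.65 to 3.46), 2.95 (1.73 to 5.21) and 10.9 (5.65 to 23.4). The outside sum of Lcn2 did not show this rise: it had 357 and 259 UMIs (0.820, 0.696 to 0.965). Without cells of 10 or more UMIs the ratio was 0.992 (0.833 to 1.18). Of these UMIs, 189 in NIHL and 54 in Drug-NIHL lay in the Coch and Inmt cluster, which met the looser source rule for Lcn2. The median cluster outside the sources stood higher in Drug-NIHL, at 1.28 CPM of Lcn2 in NIHL and 3.25 CPM in Drug-NIHL. Endothelial-like cells held part of the Lcn2 outside the sources, at 25.8 and 32.3 CPM in 41 and 47 cells.

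**Figure D5:**
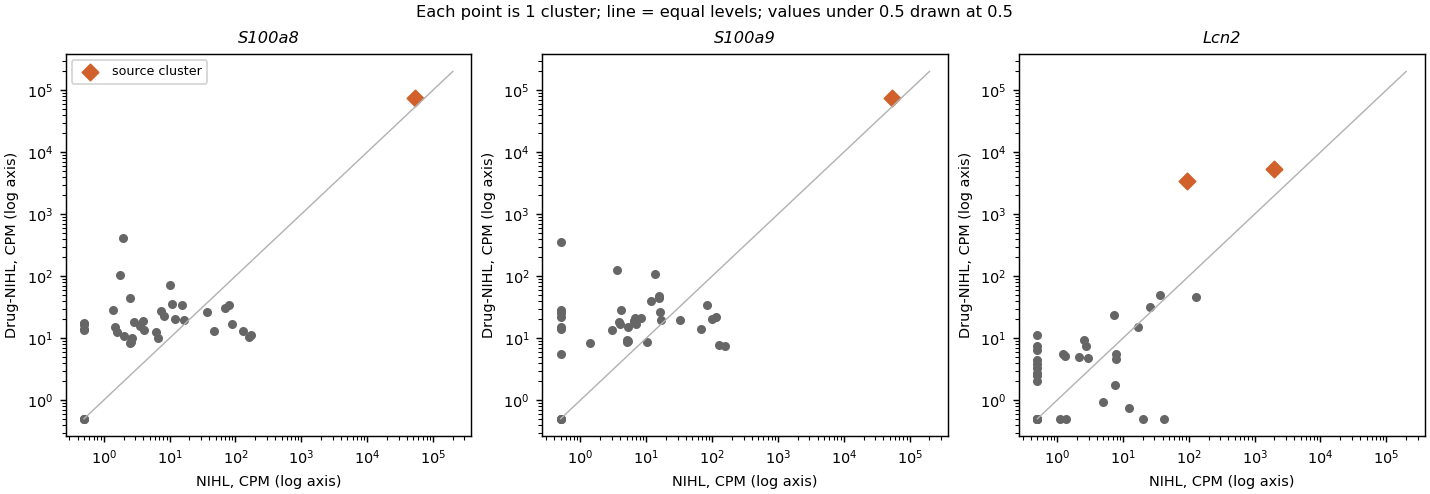
Level of S100a8, S100a9 and Lcn2 in each cluster, NIHL (horizontal) against Drug-NIHL (vertical), in CPM on log axes, with source clusters as diamonds and the grey line at equal levels. Most non-source clusters lie above the line for the S100 genes, and on both sides of it for Lcn2.

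In some single clusters outside the sources 1 cell set the value. S100a8 was lower in Drug-NIHL in the strial marginal-like cluster, at 173 and 11.2 CPM, and in the osteoblast or osteocyte-like cluster, at 163 and 10.4 CPM. In NIHL 1 cell held 100% of its UMIs in the first and 83.3% in the second. S100a8 was higher in fibrocyte-like cluster 10, at 1.79 and 103 CPM, and in the choroid plexus-like cluster, at 1.93 and 414 CPM. In Drug-NIHL 1 cell held 36.5% of its UMIs in cluster 10 and 98.4% in the choroid plexus-like cluster. In Schwann or satellite glia-like cluster 0, the largest cluster in NIHL, S100a8 stood at 11.03 and 35.7 CPM (3.24, 1.80 to 6.02). There 1 cell held 5.56% of its NIHL UMIs and 1 cell 18.4% of its Drug-NIHL UMIs.

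Across the 38 clusters with at least 20 cells in each library, genes were ranked by Pearson's r of log2(CPM + 1) with each member, as a description over clusters that share 2 libraries. S100a8 was most like S100a9 (0.95), and of other genes Retnlg (0.86), Fcnb and Cxcr2 (0.82 each). Camp was most like Cxcr2, Il1f9 and Fcnb (0.90 each), and Ngp like Ly6g, Mirt2 and Prss34 (0.90 each). Ltf was most like Serpinb2 (0.91), Orm1 (0.88) and Hp (0.82), and Lcn2 like Fosl1 (0.82), Hp (0.81) and Orm1 (0.78), with Ltf at 0.78. Saa1 followed Saa2 (0.83), Smim41 (0.78) and Gli1 (0.65), and Saa3 followed Cd163 (0.86), Msr1 (0.84) and Ccl24 (0.84), though 1 cell set much of Saa3's highest value. By cluster the 8 members thus fell into neutrophil genes, the pair Lcn2 and Ltf with an epithelial part, and Saa1 and Saa3 each apart.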

How the data were processed

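Each deposited matrix gives UMI counts, unnormalized, for every gene in every barcode; per the file headers it was written by Cell Ranger 5.0.1. The submitters' processing notes list the builds GRCm38 and mm10 and the tools Seurat 3.2.2, STAR and Cell Ranger 5.0 and do not say what each was used for. Depth was 38380393 UMIs in 18545 NIHL barcodes and 39939170 UMIs in 21773 Drug-NIHL barcodes. Intervals and floors cover counting error only, and 3 counts stood at 0.0888 and 0.0976 CPM.

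Cells needed 300 genes, 500 UMIs and at most 20% mitochondrial UMIs, and doublets marked by Scrublet (in scanpy 1.11.5, expected rate 0.08) were removed. Both libraries were clustered together without integration, on 3000 variable genes that left out the 8 members, with 30 components, 15 neighbours and Leiden resolution 1. Clusters were named "-like" from markers of 29 cell types (3 markers at 2 times the level of other cells in 10% of cells). UMIs were summed per cluster and library and divided by the sum over all genes. The ratios and intervals were run on simulated counts drawn independently, as the interval assumes. That run could not show how the intervals hold for UMIs grouped in cells. TMM scaling used R 4.3.3 with edgeR 4.0.16. All else ran in Python 3.11.15 with igraph 0.11.9, leidenalg 0.10.2, matplotlib 3.10.9, pandas 2.3.3, scipy 1.17.1 and numpy 2.4.6.

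The members, markers and 11 gene lists were chosen with earlier results of these data known. Named genes were the members, up to 2 per list and direction with the interval bound furthest from 1, the 3 genes most like each member, and markers; further genes of a list (C3, Cp, Lbp, Hamp, Cd177, Lyz2, Krt5 and Krt14) and single clusters were picked after their values were seen. Sub-clusters used 2000 variable genes, 20 components and resolution 0.5. Shares after thinning leave out no cell, since every cell kept had 500 UMIs. Alternatives were cell filters, doublets kept, clustering resolution, the members as variable genes, the source rule, per-cell means, the top cell left out and TMM scaling.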

Additional observations from a re-analysis of the deposited data

Results flagged for a closer look

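Ratios in opposite directions between sets of cells brought 5 members here, and the difference between the sets was not tested. For Lcn2 the ratio was 35.4 in the mucosal epithelium-like cells and 0.350 in the cluster led by Fst, Inmt, Dpep1 and Coch. The mucosal cluster met the source rule for Lcn2 only through Drug-NIHL. The Coch and Inmt cluster met the looser rule for it only through NIHL. Opposite directions for Lcn2 were thus built into the choice of these clusters, and its ratios here are a description. In the mature neutrophil-like and the early precursor-like sub-clusters, the ratios were 1.18 and 0.136 for S100a8, 1.09 and 0.0833 for S100a9, 4.51 and 0.00301 for Camp, and 3.48 and 0.0496 for Ngp. The early sub-cluster held 18 cells in each library.

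Barcodes removed as predicted doublets, which entered one alternative setting and no other comparison, held members at higher levels in Drug-NIHL (2597 barcodes) than in NIHL (805 barcodes). They had been removed at unlike doublet scores, above 0.164 in Drug-NIHL and above 0.264 in NIHL. S100a8 stood there at 2630 CPM against 676 CPM, and S100a9 at 2633 CPM against 696 CPM. Camp stood at 464 CPM against 6.88 CPM, Ngp at 343 CPM against 10.7 CPM, Lcn2 at 181 CPM against 23.7 CPM and Ltf at 77.0 CPM against 6.11 CPM. Saa1 stood at 3.46 CPM against 0.764 CPM, and Saa3 at 4.18 CPM with 0 UMIs in NIHL. These barcodes held 20.4% of the Drug-NIHL file's S100a8 UMIs and 4.95% of the NIHL file's.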

How the results depend on the processing

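Of 134 ratios of members in their sources under other settings, 130 kept their direction. In cluster 19, changes of the source rule and clustering resolution 0.5 left the same cells, so these settings repeated the main ratios. Lcn2, Ltf, Camp and Ngp stayed past 1.5-fold in the neutrophil-lineage sources under all 18 settings run, at 1.73 to 3.604, 2.27 to 4.74, 1.70 to 4.70 and 2.24 to 5.30. The 2 mature sub-clusters of the finer resolution entered together. Apart, Lcn2 stood at 0.942 and 1.11, and in the second Ltf stood at 1.22 and Ngp at 1.43. The mature cluster with at least 200 genes per cell, with Lcn2 at 1.33, did not enter by itself. In the mucosal cells Lcn2 (27.3 to 54.5) and Ltf (3.27 to 4.38) stayed past 1.5-fold under all 13. For Lcn2 that direction was built into the choice of the cluster. The ratios that changed direction were those of the S100 genes in cluster 19. With every cell weighted alike, S100a8 stood at 0.953 and S100a9 at 0.892, and with sub-clusters weighted as in NIHL (added after seeing the data) at 0.989 and 0.956; the weighting fixes the mix of sub-clusters by its construction. The share of cells in neutrophil-lineage clusters had ratios of 1.54 to 1.66 under 7 settings. In the main setting this is the share of all of cluster 19, with its monocyte, dendritic and macrophage-like cells. The mature neutrophil-like sub-cluster alone had a share ratio of 0.798 (0.591 to 1.07). Counts of mature cells turned with the setting. The 4 mature clusters of other settings had 120 NIHL and 210 Drug-NIHL cells, 124 and 178, 127 and 217, and 133 and 161. The one with 127 and 217 cells also took in dividing precursors. Sub-clustering at resolution 0.3 gave 119 and 147 mature cells, and the finer resolution 83 and 30 in one sub-cluster and 17 and 64 in the other. S100a8 passed 1.5-fold in 4 settings and S100a9 in 3, at up to 1.99 and 1.96 with at least 500 genes per cell. With at least 200 genes per cell, the count of members lower in neutrophil-lineage sources was 1 instead of 0, because Saa1 (42 NIHL UMIs) then met the source rule. Counting genes from 10 UMIs moved the share of genes called higher to 14% in cluster 19 and 17.4% in the mucosal cells. No paired analysis was possible because each group is 1 pooled library and the labels number no replicates. Depth limits the early and dividing precursor-like cells most, with 18 and 2 NIHL cells.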

Other observations

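Barcodes under 300 genes, of which some entered the alternative with at least 200 genes and none another comparison, also held calprotectin transcripts. S100a8 stood at 90.0 CPM in 878 NIHL barcodes and 394 CPM in 1251 Drug-NIHL barcodes, and S100a9 at 92.4 and 509.6 CPM, while Camp had 5 and 7 UMIs and Ngp 3 and 9 there. Barcodes of this class with 10 or more S100a8 UMIs numbered 1 in NIHL and 14 in Drug-NIHL.

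Within the mature neutrophil-like sub-cluster, cells with any of Camp, Ngp and Ltf were set beside cells with none. In NIHL, Lcn2 stood at 9577 CPM in the first and 2480 CPM in the second, and in Drug-NIHL at 14029.9 and 1176 CPM. Chil3 stood at 722 and 18.8 CPM in NIHL and at 2753 and 0 CPM in Drug-NIHL. Retnlg stood at 28527 and 30451 CPM in NIHL and at 15066 and 22686 CPM in Drug-NIHL, and the decoy receptor Il1r2 at 274 and 977 CPM in NIHL but at 414 and 415 CPM in Drug-NIHL. S100a8 was lower in the cells with none in both libraries, at 136154 against 177895 CPM in NIHL and 101120 against 200789 CPM in Drug-NIHL. These cells were split by measured genes, so the values are a description.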
